A study of Mus musculus with 3 samples.

Results

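The 10 genes described here take haem and iron into cells, break haem down, store iron and export it: Hmox1, Blvra, Blvrb, Cd163, Slc48a1, Tfrc, Fth1, Ftl1, Slc40a1 and Cp. They were chosen by symbol, with no measured value in the rule, and each symbol matched 1 row of the count tables, so that the 10 are 10 of 32285 genes counted. Tumour tissue of mice was measured by single-cell RNA-seq in 3 libraries, each the only one of its group. All hosts carried LLC1-sgLkb1 tumour cells, a Lewis lung carcinoma line whose genotype the labels give as a knockdown of the tumour suppressor kinase LKB1. In the series' design these cells were injected into the tail vein to seed the lung and later placed under the skin at the site to be irradiated. The labels give the tissue as tumour and name no lesion. The library labelled Flox+ICI came from a host with a floxed Sfrp2 gene given an immune checkpoint inhibitor. Flox+RI came from such a host given radiation and the inhibitor. CKO+RI came from a host designed to delete Sfrp2 where the Col1a2 promoter is active, which marks fibroblasts, and was given the same pair of agents. Strain, age, pooling of animals, radiation dose and the inhibitor used were not given in the sources used here.

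Sfrp2 itself did not back the last label. Fibroblast-like cells held 37 Sfrp2 UMIs (unique molecules counted) in 193 cells of the CKO-labelled library, 3 in 277 cells of Flox+ICI and 1 in 72 cells of Flox+RI. The deleted part of the gene was not given in the sources used here, and a UMI outside it would check nothing, so the library labelled CKO+RI is called the CKO-labelled library throughout. Depth was 75543561 UMIs for Flox+ICI, 101840883 for Flox+RI and 161250286 for the CKO-labelled library, and 9777, 11706 and 8383 cells were kept. Pairs of libraries shared between 31 and 37 cell barcodes. Cells kept had a median of 3018, 2576.5 and 13406 UMIs, in the same order.

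Haem freed from haemoglobin and other haem proteins is opened by haem oxygenase into biliverdin, carbon monoxide and iron. Macrophages do most of this work, since they engulf old or damaged red cells, and they either hold the iron in ferritin or pass it back through the exporter ferroportin. Iron also reaches most cells bound to transferrin. Iron regulatory proteins match these steps to the iron in the cell by binding a hairpin, the iron-responsive element, in the messages for ferritin, ferroportin and the transferrin receptor.

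A search of the GENCODE M21 transcripts (GRCm38) for this hairpin found it in 4 of the 10 genes. The pattern was an unpaired c, a stem of 5 base pairs (g-t pairs allowed) and a loop of 6 letters that begins with CAGTG and does not end in g, read on the transcript strand only. It occurred in the protein-coding transcripts of 222 of 21866 genes (1.015%). The sequences are shown because they separate the genes by the place of the element; capitals mark the first 5 letters of the loop. In Slc40a1, Fth1 and Ftl1 the match lay in the 5′ UTR, where protein binding is known to hold back translation. Message counts do not measure translation. In Tfrc 4 matches lay in the 3′ UTR, where binding is known to protect the message from decay.
Slc40a1 5′ UTR, chr1:45925471-45925487, minus strand: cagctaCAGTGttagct
Fth1 5′ UTR, chr19:9982738-9982754, plus strand: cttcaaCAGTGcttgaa
Ftl1 5′ UTR, chr7:45459785-45459801, minus strand: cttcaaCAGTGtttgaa
Tfrc 3′ UTR, chr16:32631225-32631241, plus strand: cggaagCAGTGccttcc
Tfrc 3′ UTR, chr16:32631604-32631620, plus strand: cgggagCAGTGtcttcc
Tfrc 3′ UTR, chr16:32631669-32631685, plus strand: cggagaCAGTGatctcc
Tfrc 3′ UTR, chr16:32631716-32631732, plus strand: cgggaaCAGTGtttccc

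Cells were grouped by clusters and marker genes, without the 10 genes. Macrophage-like cells (C1qa, Adgre1 and others) numbered 956 for Flox+ICI, 1798 for Flox+RI and 548 for the CKO-labelled library. They were divided by a score into a Mrc1 side (Mrc1, Folr2, Lyve1 and others, as in tissue-resident macrophages) and a Gpnmb side (Gpnmb, Trem2, Spp1 and others, as in lipid-laden macrophages). One cluster, led by Arg1, Apoe and Gpnmb, held 645, 1487 and 118 cells, and the other, led by C1qa and Mrc1, held 325, 333 and 434. The score is continuous, so the sides are ranges and not cell types, and 196, 463 and 78 cells lay within 0.25 of a boundary. Of the macrophage-like cells in Flox+ICI, the Gpnmb side held 53.3% (95% exact interval 50.1 to 56.5), against 42.4% (40.1 to 44.7) for Flox+RI and 14.4% (11.6 to 17.6) for the CKO-labelled library. Levels are UMIs of a gene summed over the cells of a class in 1 library, per 1000000 UMIs of that class (CPM), with exact Poisson 95% intervals. Ratios carry exact conditional binomial 95% intervals. Both cover counting error only: cells are not replicates, and with 1 library per group no p-value was computed. A ratio passed when it was at least 2-fold with an interval that left out 1, for genes with 20 UMIs or more over both sums.

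In each of the 3 libraries, ferritin and the lysosomal haem transporter were higher on the Gpnmb side. The haemoglobin receptor and, at a low level, ceruloplasmin were higher on the Mrc1 side. Fth1, Ftl1 and Slc48a1 passed as higher on the Gpnmb side in all 3 libraries, which is 3 of 10 genes where 0.977% of 9209 genes did so. Cd163 and Cp passed as lower in all 3, against 2.48% of genes. The 5 other genes passed in neither direction in all 3. Because this comparison lies within a library, library preparation and depth per library are shared by both sides.

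Fth1, the ferritin heavy chain that oxidises iron for storage, stood at 47292 CPM on the Gpnmb side and 13651 on the Mrc1 side in Flox+ICI. In Flox+RI the 2 sides were at 53207 and 15346, and in the CKO-labelled library at 47260 and 14955. The Gpnmb side was thus 3.16-fold to 3.47-fold higher, while each side differed by no more than 1.13-fold between libraries. Ftl1, the ferritin light chain, was 3.10-fold, 2.77-fold and 3.19-fold higher on the Gpnmb side in Flox+ICI, Flox+RI and the CKO-labelled library. Together the 2 ferritin genes took 7.52%, 8.38% and 7.17% of all UMIs on the Gpnmb side and 2.27%, 2.64% and 2.26% on the Mrc1 side. Reads of Ftl1 and its processed copy Ftl1-ps1 can be exchanged by the counting. The copy came to 2.30% and 2.32% of the Ftl1 level on the Gpnmb side of the floxed libraries and 1.34% in the CKO-labelled library.

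Slc48a1, which carries haem out of the lysosome after red cells are digested, stood at 239.7 CPM on the Gpnmb side and 101 on the Mrc1 side in Flox+ICI. The values were 407 and 133 in Flox+RI, and 155 and 68.7 in the CKO-labelled library. The ratios of the sides were 2.37 (1.95 to 2.91), 3.06 (2.71 to 3.47) and 2.26 (1.79 to 2.83), the last falling to 1.65 when doublets were not removed. Hmox1, the haem oxygenase that opens the haem ring, was higher on the Gpnmb side by 2.14-fold (1.98 to 2.31), 2.44-fold (2.33 to 2.55) and 1.98-fold (1.82 to 2.16). The last value missed the 2-fold limit. Without doublet removal the ratios were 1.99, 2.01 and 1.38, and by the marker gate alone they were 3.68 and 4.77 in the floxed libraries. Blvrb, which reduces biliverdin and flavins, and Blvra, the main biliverdin reductase of adults, did not pass in any library, though Blvra did as lower in the CKO-labelled library without doublet removal (0.458).

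Cd163, the receptor for haptoglobin-bound haemoglobin, was counted mainly on the Mrc1 side. It stood there at 67 CPM in Flox+ICI, 144 for Flox+RI and 59.2 for the CKO-labelled library, against 0.67, 1.35 and 0 on the Gpnmb side, where 2, 5 and 0 UMIs were counted. Alveolar macrophage-like, neutrophil-like and T cell-like sums held 2 Cd163 UMIs or fewer per class and library. Cp, a ferroxidase that loads exported iron onto transferrin, stood on the Mrc1 side at 24.6, 7.67 and 16.9 CPM and on the Gpnmb side at 0.67, 3.25 and 6.47. These rest on 2 to 55 UMIs per sum. In T cell-like cells Cp stood at 9.50, 8.18 and 6.99 CPM, above the Gpnmb side in each library and above the Mrc1 side in Flox+RI. Fibroblast-like cells held it at 507, 116 and 147 CPM, the same order of libraries as on the Mrc1 side. Where the Cp counted in macrophage-like cells came from was not tested. Without doublet removal the Cp ratio in Flox+ICI moved from 0.0272 to 0.218, that in Flox+RI turned to 1.10 (0.717 to 1.72) and that in the CKO-labelled library no longer passed, at 0.713 (0.451 to 1.09). The Flox+RI ratio of 0.423 also missed at Leiden resolution 2.0 and with the 10 genes kept in the clustering, where its interval reached past 1. Slc40a1, the ferroportin exporter, passed as lower on the Gpnmb side in Flox+ICI, at 10.4 against 45.8 CPM, and in the CKO-labelled library, at 7.76 against 20.9 CPM, a ratio of 0.372 (0.132 to 0.852) on 6 against 68 UMIs. In Flox+RI it stood at 19.5 and 23.8 CPM, a ratio of 0.817 (0.568 to 1.18). The ratio of 0.226 in Flox+ICI moved to 0.713 when Ccl8 and Spp1 were left out of the score.

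**Figure D1:**
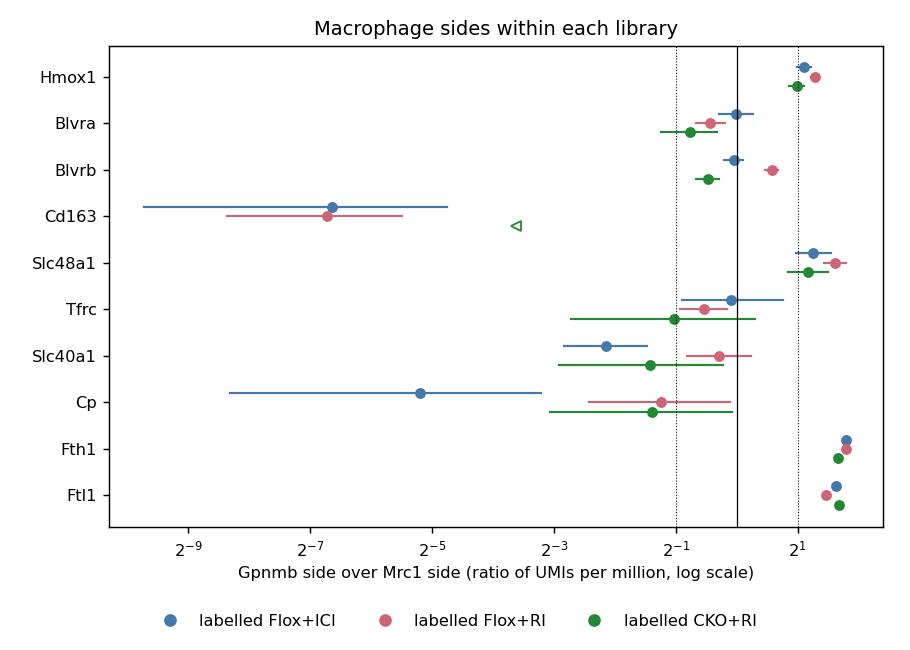
Ratio of the Gpnmb side to the Mrc1 side of macrophage-like cells for each gene and library (log scale, dotted lines at 2-fold, bars are 95% intervals for counting error; the open triangle is an upper bound where the Gpnmb side had 0 UMIs). Fth1, Ftl1 and Slc48a1 lie beyond 2-fold on the right and Cd163 far to the left in all 3 libraries.

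In Flox+RI against Flox+ICI, radiation had been added to the inhibitor in floxed hosts, and most of the 10 genes were moderately higher in macrophage-like cells. Over all macrophage-like cells 2 of the 10 measured genes passed as higher, Tfrc and Cd163, where 3.11% of 12591 genes did, and none passed as lower, where 3.07% did. The Cd163 ratio of 2.80 (2.19 to 3.61) over all macrophage-like cells fell to 1.48 with each cell at the same weight, which does not pass, and likewise to 1.48 with 5 bins of the side score weighted as in Flox+RI. By interval alone 7 were higher and 1 was lower, with no share over all genes to set beside this count. Genes with many UMIs leave out 1 at small differences, such as Fth1 at 37835 against 35137 CPM. The median log2 ratio of the 10 was 0.24 and that of all genes was -0.10. Both comparisons described here use the Flox+RI library, so a value particular to that library enters both with opposite sign.

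Hmox1 (ENSMUSG00000005413, plus strand, chr8:75093621-75100589 of GRCm38) was higher in Flox+RI on both sides without reaching 2-fold. On the Gpnmb side it stood at 1367 CPM (4090 UMIs) in Flox+ICI and 2619.5 CPM (9685 UMIs) in Flox+RI, a ratio of 1.92 (1.85 to 1.99). On the Mrc1 side it stood at 639.8 and 1075 CPM, a ratio of 1.68 (1.55 to 1.82). With each cell at the same weight both passed, at 2.11 on the Gpnmb side and 2.33 on the Mrc1 side, and the Gpnmb-side ratio passed at 2.08 when centred on the median gene. Cells were also thinned to 2000 UMIs, and those with fewer were left out. Of the cells so thinned, 52.1% of 499 Gpnmb-side cells in Flox+ICI and 81.9% of 741 in Flox+RI held an Hmox1 UMI. In T cell-like cells, a class of low Hmox1 level given for comparison, the shares were 3.49% of 258 cells and 14.2% of 134. Leaving cells out removed 660 of 918 and 496 of 630 T cell-like cells, so thinned and unthinned shares rest on different cells. Unthinned shares were 71.2% and 89.6% on the Gpnmb side, at median depths of 5669.5 and 4770 UMIs, and 4.68% and 8.73% in T cell-like cells, at 1549.5 and 1374 UMIs. Slc48a1 was 1.70-fold (1.55 to 1.86) and Blvrb 1.55-fold (1.45 to 1.66) higher on the Gpnmb side, and Blvra was 1.501-fold lower there (1.29 to 1.75). On the Mrc1 side Blvrb was at 433 and 434 CPM.

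Tfrc, the transferrin receptor that brings iron into most cells, passed as higher in Flox+RI than in Flox+ICI over all macrophage-like cells and on each side. It stood at 14.4 CPM (75 UMIs) in macrophage-like cells of Flox+ICI and 37.2 CPM (302 UMIs) in those of Flox+RI, 2.59-fold higher (2.003 to 3.38). The ratio was 2.93-fold (1.79 to 5.05) on the Mrc1 side, where 2 of 10 genes passed as higher against 3.97% of genes, and 2.16-fold (1.52 to 3.11) on the Gpnmb side, where 1 of 8 measured did against 2.35%. Without doublet removal the ratio fell to 1.70 over all macrophage-like cells and to 1.63 on the Gpnmb side. Tfrc was also higher in neutrophil-like cells, at 69.3 against 25.9 CPM, and in monocyte-like cells, at 66 against 20.2 CPM. The latter held 97 Tfrc UMIs over all libraries and numbered 102 in Flox+RI. In T cell-like cells Tfrc stood at 51.8 and 48.1 CPM, a ratio of 1.08 (0.758 to 1.52).

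Cd163 on the Mrc1 side was 2.14-fold higher in Flox+RI (1.67 to 2.77), and it did not pass when each cell had the same weight (1.26), without doublet removal (1.78), with Ccl8 and Spp1 out of the score (1.51) or by the marker gate alone (1.998). Cp on the Mrc1 side was 3.21-fold lower (1.72 to 6.14; 18 against 29 UMIs), the 1 gene that passed as lower there, against 4.28% of genes. Its Flox+RI level there, 7.67 CPM, lay below the 8.18 CPM of T cell-like cells. Slc40a1 did not pass on either side, at a ratio of 0.521 (0.352 to 0.771) on the Mrc1 side and 1.88 (1.22 to 2.96) on the Gpnmb side. The first moved to 1.45 with Ccl8 and Spp1 out of the score and passed by the marker gate alone (0.434), and the second passed with each cell at the same weight (2.51). Fth1 and Ftl1 differed by at most 1.23-fold on either side.

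Other signals moved with this comparison. In macrophage-like cells 6 of 8 hypoxia genes passed as higher in Flox+RI (Bnip3, Ndrg1, Adm, Ankrd37, Egln3 and Ero1l), with a summed level of 656 against 272 CPM, and 5 of 8 did in tumour cells. Haemoglobin and erythroid genes summed to 365 against 141 CPM, with 3 of 4 measured passing as higher and 1 of the 6 listed at 0 in each library. On the Mrc1 side they summed to 817 against 89.9 CPM, and on the Gpnmb side to 123 against 186 CPM. NRF2 targets, which respond to oxidants along with Hmox1, summed to 2093 and 2094 CPM, with none of 9 passing. Their median log2 ratio was nonetheless 0.35 over all macrophage-like cells, 0.49 on the Mrc1 side and 0.46 on the Gpnmb side. That of all genes was -0.10, -0.12 and -0.12, in the same order. Genes of dissociation stress, which sample handling can induce, summed to 3056 against 2082 CPM in macrophage-like cells, with Hspa1a of 9 passing as higher. The part of any of these in the 10 genes was not tested.

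In the CKO-labelled library against Flox+RI, Hmox1 and Slc48a1 were lower on both macrophage sides, and the ferritin heavy chain gene Fth1 differed by at most 1.13-fold within a side. Over all macrophage-like cells 4 of 10 genes passed as lower (Hmox1, Ftl1, Tfrc and Slc48a1), where 8.83% of 12354 genes did, and 1 passed as higher (Cp), where 5.88% did. On the Mrc1 side 3 of 10 passed as lower (Hmox1, Tfrc and Cd163; 7.13% of genes) and 1 as higher (Cp; 3.83%). On the Gpnmb side 4 of 8 measured genes passed as lower (Hmox1, Slc40a1, Tfrc and Slc48a1; 7.22%) and 0 as higher (4.56%). Median log2 ratios of the measured genes were -0.54, -0.36 and -1.07, and those of all genes 0.10, 0.0048 and 0.045.

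The ratios over all macrophage-like cells also carry the different mix of sides. Hmox1 was 3.22-fold lower over all of them (3.10 to 3.35), at 630.4 against 2031 CPM, but 2.07-fold lower on the Mrc1 side (1.95 to 2.21), at 519 against 1075 CPM. On the Gpnmb side it was 2.55-fold lower (2.37 to 2.74), at 1027 against 2619.5 CPM. Macrophage-like cells were then placed in 5 bins of equal number along the score. With the bins of every library weighted as in Flox+RI, Hmox1 was 2.23-fold lower. Within single bins it was between 1.63-fold and 3.71-fold lower, the smallest difference falling in a bin with 23 cells of the CKO-labelled library. The Mrc1-side ratio of 0.483 stayed near the limit, and it moved just past 0.5 at Leiden resolution 2.0 (0.508) and with the 10 genes kept in the clustering (0.505), and to 0.573 by the marker gate alone. Of the 78 thinned Gpnmb-side cells in the CKO-labelled library, 30.8% (20.8 to 42.2) held an Hmox1 UMI, and 3.86% of its 415 thinned T cell-like cells did. Unthinned shares were 69.6% and 5.65%, at median depths of 9030 and 2891 UMIs.

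**Figure D2:**
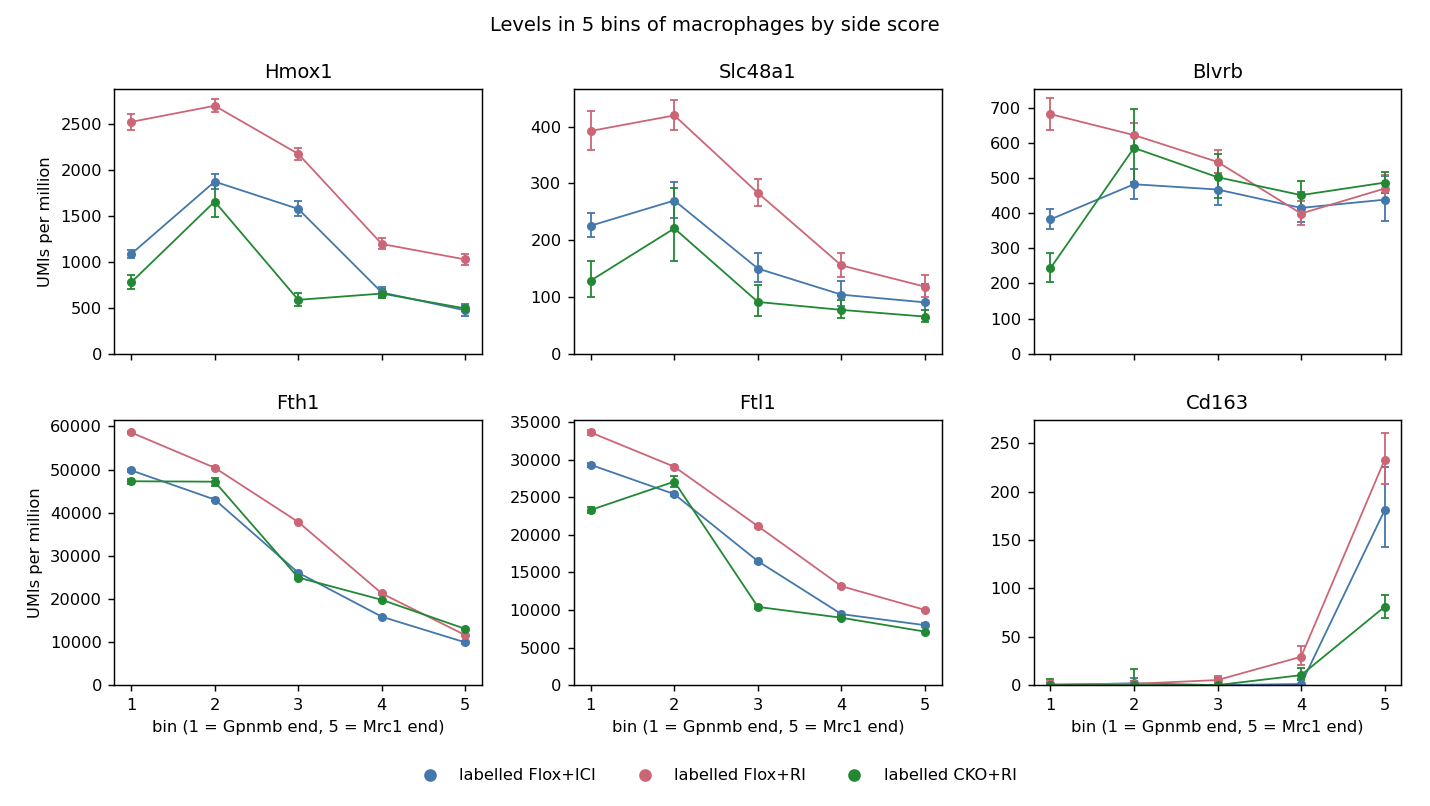
Level of 6 genes (CPM) in 5 bins of macrophage-like cells ordered from the Gpnmb end (1) to the Mrc1 end (5), by library, with 95% Poisson bars. Hmox1 and Slc48a1 lie highest in Flox+RI in every bin; Fth1 and Ftl1 are lower in each further bin of the floxed libraries, and Cd163 is highest in bin 5. Bin 2 holds 23 cells of the CKO-labelled library.

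Slc48a1 was lower as well. It was 2.62-fold lower on the Gpnmb side (2.17 to 3.18), 1.93-fold lower on the Mrc1 side (1.62 to 2.31), 2.30-fold lower with the mix held as in Flox+RI, and lower in each of the 5 bins by 1.81-fold to 3.11-fold. Blvrb was 1.89-fold lower on the Gpnmb side (1.67 to 2.16) and 1.09-fold higher on the Mrc1 side (1.01 to 1.18). Cd163 was 2.42-fold lower on the Mrc1 side (2.03 to 2.91), at 59.2 against 144 CPM, and its ratio of 0.413 moved to 0.569 under equal weights per cell, which does not pass. With the mix held as in Flox+RI it was 2.99-fold lower. Its level over all macrophage-like cells was nearly equal, at 41.3 and 43.5 CPM. The Mrc1 side made up 72.8% of macrophage-like cells in the CKO-labelled library and 30.6% in Flox+RI.

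Iron entry and export genes rest on fewer UMIs. Tfrc was 3.18-fold lower over all macrophage-like cells (2.38 to 4.32; 55 against 302 UMIs), and it fell below the limit without doublet removal, at a ratio of 0.573. With each cell at the same weight the ratio was 0.495 over all of them and 0.498 on the Mrc1 side, where it was 0.279 otherwise. On the Gpnmb side it was 5.02-fold lower on 5 against 120 UMIs (2.09 to 15.7), and the ratio was 0.534 without doublet removal. Slc40a1 stood at 20.9 and 23.8 CPM on the Mrc1 side, a ratio of 0.875 (0.605 to 1.27). By the marker gate alone it passed as lower there, at 0.186 (0.0804 to 0.394), and over all macrophage-like cells, at 0.277 (0.160 to 0.457) where the ratio was otherwise 0.863. For the same gene on the Gpnmb side 6 against 72 UMIs gave 2.51-fold lower (1.10 to 7.06). Cp on the Mrc1 side was 2.20-fold higher (1.27 to 3.98; 55 against 18 UMIs) than in Flox+RI, where it lay below its T cell-like level. Over all macrophage-like cells its ratio of 2.95 fell to 1.98 without doublet removal.

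Ferritin differed more over all macrophage-like cells than within a side. Fth1 was 1.75-fold lower over all macrophage-like cells, at a ratio that passed without doublet removal (0.487), yet 1.03-fold lower on the Mrc1 side (1.01 to 1.04), 1.13-fold lower on the Gpnmb side (1.11 to 1.14) and 1.18-fold lower at an equal mix. Ftl1 was 2.07-fold lower over all of them, 1.44-fold lower on the Mrc1 side (1.42 to 1.47) and 1.25-fold lower on the Gpnmb side (1.23 to 1.27). Ftl1 was also lowest in the CKO-labelled library in all 9 classes with 50 cells or more in each library, counting the 2 sides as classes, T cell-like cells included (1.59-fold lower there than in Flox+RI). Alveolar macrophage-like cells, outside that count with 49 cells in Flox+RI, did not share this order. Their Ftl1 was lowest in Flox+ICI, at 14867 CPM, against 18473 in Flox+RI and 18111 in the CKO-labelled library. Genes beside these differed as well. NRF2 targets summed to 1461 against 2093 CPM in macrophage-like cells, with Gclm, Gclc and Slc7a11 of 8 measured passing as lower, and none of 8 hypoxia genes passed over all of them. On the Gpnmb side 2 of 8 hypoxia genes, Ndrg1 and Egln3, passed as lower, with a sum of 424 against 595 CPM. Haemoglobin and erythroid genes summed to 417 against 365 CPM over all macrophage-like cells, to 404 against 817 CPM on the Mrc1 side, where Hbb-bs passed as lower, and to 257 against 123 CPM on the Gpnmb side, where Hbb-bt passed as higher. Dissociation stress genes summed to 3478 against 3056 CPM, with Hspa1a and Hspa1b of 9 passing as higher and Egr1 as lower. On the Gpnmb side their sum was 2503 against 2799 CPM, and there Egr1 alone of the 9 passed. Their part in the result was not tested.

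**Figure D3:**
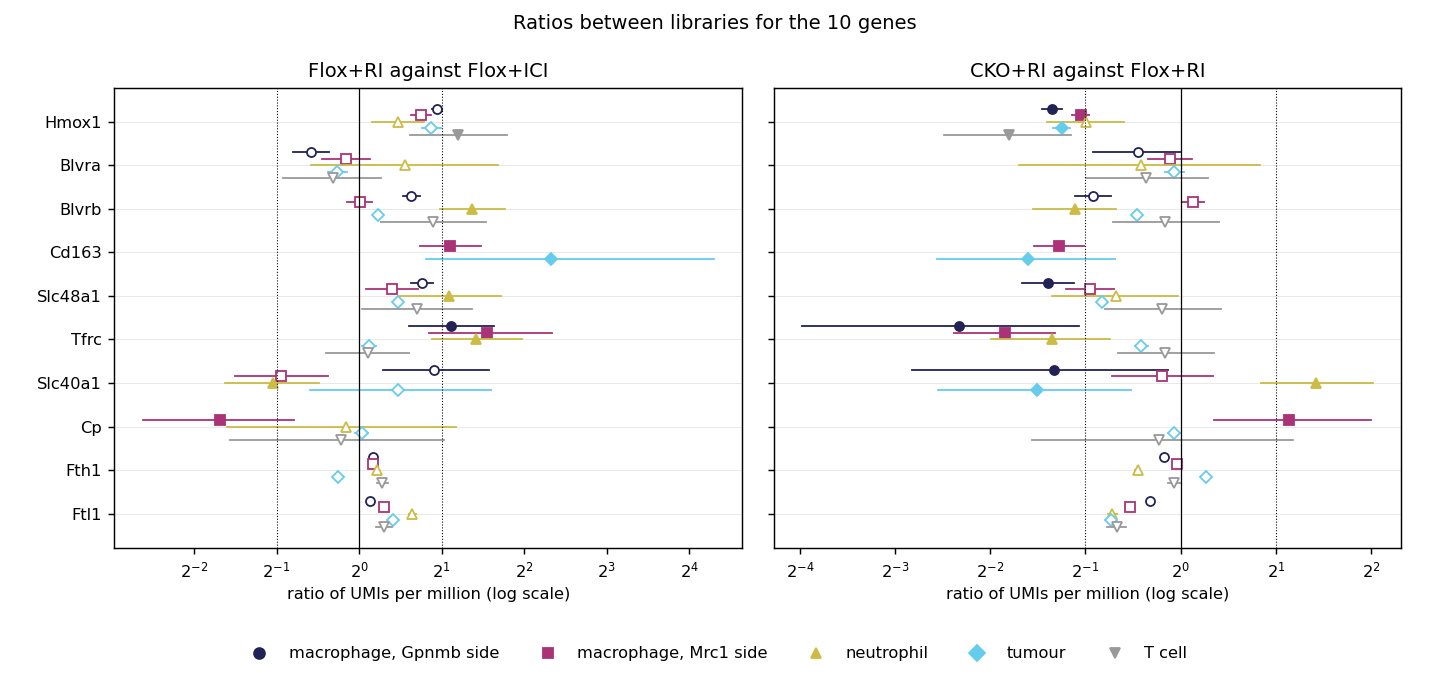
Ratio between libraries for each gene in 5 classes (log scale; bars are 95% intervals for counting error, dotted lines mark 2-fold, filled symbols pass the 2-fold rule and open ones do not; classes with under 20 UMIs are left out). Hmox1 lies right of 1 in the left panel and left of 1 in the right panel for all 5 classes, T cell-like cells included.

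Hmox1 was highest in Flox+RI in 9 of 9 classes and lowest in the CKO-labelled library in 8 of them, the exception being endothelial-like cells (19.3 CPM in Flox+ICI, 25.4 in the CKO-labelled library). The order holds in T cell-like cells, at 24.6, 56.4 and 16.1 CPM in Flox+ICI, Flox+RI and the CKO-labelled library. It holds in tumour cells as well, at 18.7, 34.3 and 14.4 CPM, below the T cell-like level in each library. Tumour cells are deeper, with medians of 14472, 15993 and 25006.5 UMIs, and 22.6%, 40.1% and 27.9% of them held an Hmox1 UMI. After thinning to 2000 UMIs, with cells under that left out, the shares were 3.78%, 6.89% and 2.97%. They were 3.49%, 14.2% and 3.86% of the 258, 134 and 415 T cell-like cells that remained. T cell-like cells passed as lower for 1 of 8 measured genes (Hmox1, 3.49-fold; 4.71% of genes), and 0 as higher (5.39%), in the CKO-labelled library against Flox+RI and as higher for 1 (Hmox1, 2.29-fold; 1.6%) in Flox+RI against Flox+ICI. Macrophage-like sums lay 36.0-fold to 49.0-fold above the T cell-like level. An unnamed cluster led by Ccl3 and Ccrl2, outside the count of 9 classes, went the other way. Its Hmox1 stood at 721 CPM in Flox+ICI (66 cells) and 220.2 CPM in Flox+RI (2662 cells). How much of any class's Hmox1 came from free RNA was not tested.

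**Figure D4:**
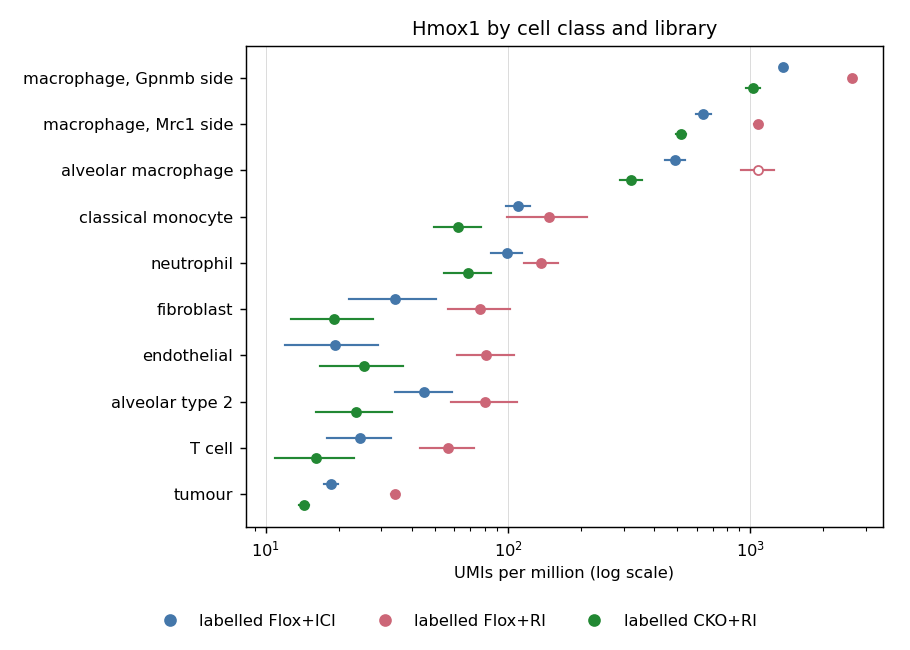
Hmox1 level (CPM, log scale) in 10 classes for each library, with 95% Poisson intervals. Macrophage-like and alveolar macrophage-like cells lie highest, Flox+RI is the highest library in each class, and the open symbol marks 49 cells, under the minimum of 50.

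By level, Hmox1 was ordered from the Gpnmb side through the Mrc1 side and alveolar macrophage-like cells to monocyte-like, neutrophil-like and then all other classes. Median levels over the libraries were 1367 CPM, 639.8 CPM, 405.8 CPM (2 libraries), 110.2 CPM and 98.8 CPM. The spread between libraries, 2.07-fold on the Mrc1 side and 2.37-fold in monocyte-like cells, exceeded the step from the Mrc1 side to alveolar macrophage-like cells and that from monocyte-like to neutrophil-like cells. Alveolar macrophage-like cells (Chil3, Ear1, Ear2 and others), which live in the air spaces, numbered 287, 49 and 209. Their Hmox1 level was 489 CPM (444 to 537), 1075 (919 to 1250.4) and 323 (289.9 to 358), the same order of libraries as in the 2 sides. With 49 cells in Flox+RI no ratio to that library was called. Their Fth1 was at 29055, 34032 and 31902 CPM and Slc48a1 was at 117, 216 and 143 CPM. In the 2 libraries with enough cells Fth1 was 2.13-fold higher than on the Mrc1 side in each. Blvrb was 1.86-fold and 1.95-fold lower than there, and Blvra 1.39-fold and 1.27-fold higher.

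A cluster led by Ccl3, Ccrl2 and F10 scored highest for neutrophils. It carried no class name, because its leading genes held more markers of monocytes than of neutrophils. The cluster held 66, 2662 and 2 cells, and in Flox+RI it outnumbered the 1484 neutrophil-like cells, which do not include it. Its Slc40a1 stood at 0 CPM in Flox+ICI and 18.1 in Flox+RI. Its Fth1 stood at 59730 CPM in Flox+ICI and 50966 in Flox+RI, near the Gpnmb-side level, and its Hmox1 stood at 721 and 220.2 CPM. A second unnamed cluster, with leading genes of macrophages and tumour cells, held 42, 82 and 246 cells, with Hmox1 at 530.3 CPM in Flox+RI and 23.7 in the CKO-labelled library. Neither entered a comparison.

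Slc40a1 in neutrophil-like cells was lowest in Flox+RI. The gene (ENSMUSG00000025993) lies on the minus strand at chr1:45908068-45926523 of GRCm38. Neutrophil-like cells held it at 63.9 CPM (121 UMIs) in Flox+ICI, 31.1 CPM (35 UMIs) in Flox+RI and 83.1 CPM (98 UMIs) in the CKO-labelled library. It was the 1 gene of 8 measured to pass as higher in the last against Flox+RI, by 2.67-fold (1.80 to 4.05; 4.66% of genes), and the 1 of 9 to pass as lower in Flox+RI against Flox+ICI, by 2.06-fold (1.40 to 3.09; 3.83%). The second ratio of 0.486 moved to 0.505 by the marker gate alone, 0.512 without doublet removal and 0.503 among cells with 1000 UMIs or more, which do not pass. Neutrophil-like cells held more Slc40a1 than macrophage-like cells in each library, by 2.85-fold in Flox+ICI, 1.62-fold for Flox+RI and 5.01-fold for the CKO-labelled library. Monocyte-like, T cell-like and tumour sums lay between 0 and 0.91 CPM.

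The neutrophil-like class was made of 2 clusters in unequal parts. The cluster led by S100a9 and Retnlg held 1530, 577 and 561 of these cells, and the one led by Il1b and Il1r2 held 92, 907 and 73. Slc40a1 stood at 66, 47.4 and 89.5 CPM in the first and at 13.6, 19.7 and 25.5 CPM in the second, the latter on 1, 13 and 3 UMIs. The order of libraries in the first cluster was the same as over the class, with a smaller spread. Flox+RI neutrophil-like cells had a median of 710 UMIs, and the median gene of the class was shifted by 0.35 on the log2 scale against Flox+ICI and by -0.20 for the CKO-labelled library against Flox+RI. Blvrb, Tfrc and Slc48a1 passed as higher in Flox+RI against Flox+ICI in these cells, 3 of 9 where 15.1% of genes did. Blvrb and Tfrc passed as lower in the CKO-labelled library, 2 of 8 where 10.4% did. Blvrb lost both calls among cells with 1000 UMIs or more, at ratios of 1.499 and 0.888, while Tfrc stayed at 2.91 and 0.374. Slc48a1 lost its call when centred on the median gene (1.68), at 10% mitochondrial UMIs (1.992) and among cells with 1000 UMIs or more, where the interval of 2.38 spanned 1 (0.981 to 5.24). Hmox1, at a ratio of 0.502 in the CKO-labelled library against Flox+RI, just missed the limit and passed under 7 alternatives, at 0.437 to 0.491. Haemoglobin and erythroid genes in neutrophil-like cells summed to 312, 249.6 and 1925 CPM, and their part was not tested.

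**Figure D5:**
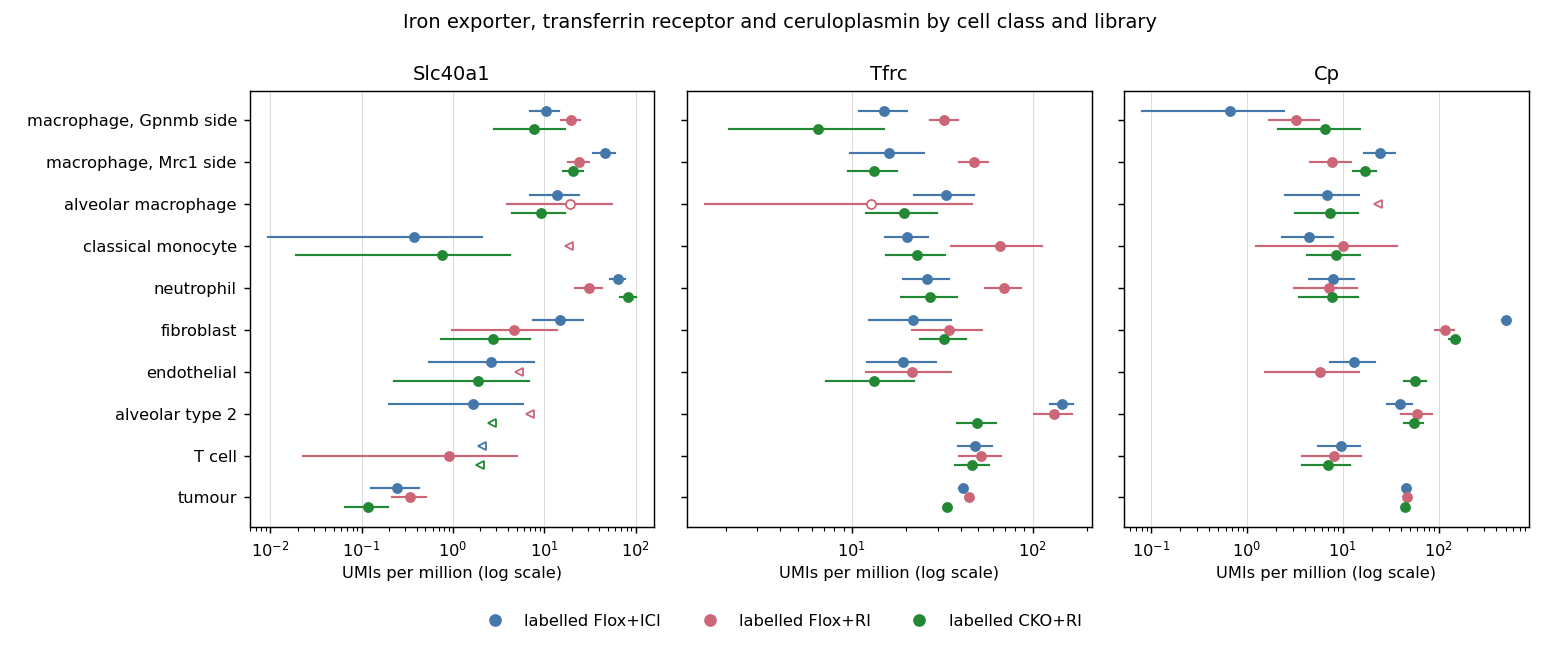
Slc40a1, Tfrc and Cp levels (CPM, log scale) in 10 classes for each library, with 95% Poisson intervals; open triangles are upper bounds of sums with 0 UMIs, and open circles mark 49 cells. Neutrophil-like cells and the Mrc1 side hold the highest Slc40a1, and fibroblast-like cells the highest Cp.

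In monocyte-like cells Hmox1 and Tfrc passed as lower in the CKO-labelled library against Flox+RI, 2 of 7 measured where 5.11% of genes did, and 0 as higher (3.87%), and Tfrc passed as higher in Flox+RI against Flox+ICI, 1 of 7 where 2.54% did. Flox+RI had 102 such cells and 29 Hmox1 UMIs, and Tfrc had 97 UMIs over all libraries. The Hmox1 ratio of 0.421 (0.273 to 0.668) moved to 0.209 without doublet removal, 0.205 with the 10 genes kept in the clustering and 0.0743 by the marker gate alone. Tfrc just missed the limit with the 10 genes kept (0.5004). Blvrb, which did not pass, turned from 1.39 to 0.421 by the marker gate alone, and from 0.855 to 2.57 in Flox+RI against Flox+ICI. Hmox1 in the latter comparison moved from 1.34 to 5.74 by that gate, and Fth1 from 1.10 to 4.26.

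Cp was highest in fibroblast-like cells, at 507 CPM in Flox+ICI, 116 for Flox+RI and 147 for the CKO-labelled library, on 277, 72 and 193 cells. Tumour cells held it at 46.2, 47.2 and 44.8 CPM, a spread of 1.05-fold, against 9.50, 8.18 and 6.99 CPM in T cell-like cells. The spread in tumour cells depended on the setting. In the CKO-labelled library against Flox+RI the ratio was 0.807 without the cluster led by Dcn and Lum and 0.691 by the marker gate alone. It was 0.83 without doublet removal, 0.815 with the 10 genes kept in the clustering and 1.04 with each cell at the same weight. None of these ratios reached 2-fold. Within tumour clusters of 50 cells or more, Cp ranged from 15.9 to 88.8 CPM over the libraries. The cluster led by Hmga2 and the histone gene Hist1h2ap lay lowest in each library, and Cp there was at 18.4, 17.5 and 15.9 CPM.

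In tumour cells (Krt8, Hmga2, Ereg and others) 3 of 10 genes passed as lower in the CKO-labelled library against Flox+RI, where 9.25% of 16955 genes did, and 0 as higher (4.34%). They were Hmox1, and Slc40a1 and Cd163 at under 1 CPM in each library. In Flox+RI against Flox+ICI 1 of 10 passed as higher, Cd163 on 29 against 4 UMIs, where 3.09% of genes did, and 0 as lower (8.27%). The median gene was shifted by -0.24 on the log2 scale. Among genes above the T cell-like level, Slc48a1 was at 61.4, 85.1 and 47.9 CPM and Blvrb at 132, 155 and 113 CPM, with Flox+RI highest for both. Slc48a1 was 1.78-fold lower (1.71 to 1.84) and Blvrb 1.37-fold lower (1.34 to 1.41) in the CKO-labelled library. Of the ferritin genes, Fth1 ran the other way, at 7119, 5973 and 7199 CPM, and Ftl1 did not. Ftl1 stood at 1401, 1856 and 1115 CPM, highest in Flox+RI. Each library's tumour cells lay mainly in different clusters: one led by Tenm4 and Nav3 held 1493 of 3263 in Flox+ICI, one led by Sema3a and Il1rl1 held 2664 of 4214 in Flox+RI, and one led by Tenm4 and Dlg2 held 1969 of 4694 in the CKO-labelled library. In the cluster led by Sema3a and Ereg, with 827, 845 and 482 cells, Slc48a1 stood at 52.7, 64.9 and 40.8 CPM and Fth1 at 6237, 5054 and 6196 CPM. Flox+RI was highest for Slc48a1 and lowest for Fth1 there too.

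Of 48 other haem and iron genes, 0 to 8 passed per class and comparison, with no share over all genes to set beside this range. In macrophage-like cells 36 were measured in the CKO-labelled library against Flox+RI, of which 1 passed as higher (5.88% of all genes did) and 2 as lower (8.83%). Hp, which encodes haptoglobin, the carrier that delivers haemoglobin to Cd163, was 13.8-fold lower, at 30.6 against 424 CPM. Lcn2, which encodes a siderophore-binding protein, was 3.88-fold lower, at 18.3 against 71 CPM, and it was lower in T cell-like cells too, at 9.68 against 49.1 CPM. Hp in T cell-like cells was at 8.07 against 17.3 CPM, and neutrophil-like cells held it at 1870.2 against 1696 CPM. Steap3, an endosomal iron reductase, was 2.14-fold higher in the macrophage-like cells. In Flox+RI against Flox+ICI 2 of 37 passed as higher (3.11% of genes), Hp at 424 against 107 CPM and the haem-induced transcription factor gene Spic at 10.4 against 2.69 CPM, and Ltf passed as lower (3.07%) on 18 against 24 UMIs. The median log2 ratio of these lists was 0.03 and -0.08. Haem synthesis genes (8 measured) and mitochondrial iron genes (7) had none that passed in macrophage-like cells in either comparison. In neutrophil-like cells 5 of 30 passed as higher in Flox+RI against Flox+ICI, near the share of all genes (15.1%), and 3 as lower (3.83%). The median gene of this class was itself shifted by 0.35 on the log2 scale. The 3 lower ones were the siderophore-binding Lcn2, at 2394 against 7947 CPM, the gene of the iron-binding granule protein lactoferrin, Ltf, at 31.1 against 467 CPM, and the metalloreductase gene Steap4, at 49.7 against 108 CPM. Among the higher ones were Alad, Fech, the metal transporter gene Slc39a14 and the haemopexin receptor gene Lrp1, by 2.04-fold to 6.16-fold on 21 to 46 UMIs in Flox+RI. These class ratios also carry the different mix of neutrophil-like clusters. Lcn2 is a leading gene of the cluster led by S100a9 and Retnlg, which held 1530 cells in Flox+ICI and 577 in Flox+RI. In tumour cells 2 of 42 passed as lower in the CKO-labelled library (9.25% of genes), Slc11a1 and Lcn2, and 3 of 42 (8.27%) in Flox+RI against Flox+ICI, namely Steap3 at 18.1 against 46.1 CPM and Ltf and Hamp at under 1 CPM.

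Over 38 class-by-library profiles, the genes most like Hmox1 among 8354 were the lipid droplet gene Plin2 (Pearson r = 0.91), the lysosomal glycoprotein gene Cd68 (0.91), Grik3 (0.90), Ftl1-ps1 (0.89) and the lysosomal hexosaminidase gene Hexa (0.89). Those most like Slc40a1 were the formyl peptide receptor gene Fpr1 (0.80), the complement receptor gene C5ar1 (0.77), Lpcat2 (0.77), Siglece (0.76) and Grina (0.75). Profiles of 1 library share its depth and free RNA, so these values describe likeness only.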

How the data were processed

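The deposited files are UMI counts per gene and cell barcode, made by the authors with Cell Ranger, which is version 6.0 per the submitters' processing notes and 6.1.2 per the file headers; the notes name mm10 and GRCm38. Barcodes under 200 genes or over 20% mitochondrial UMIs were dropped, and the 0.8% per 1000 barcodes with the highest scrublet score were removed as doublets (915, 1367 and 653). Counts were scaled to 10000 per cell and clustered without integration (scanpy 1.11.5; 2000 variable genes, 30 components, 15 neighbours, Leiden resolution 1), leaving out the 10 genes and 48 other haem and iron genes. A class took a cluster's cells holding at least 1 of its markers. All names are made here, not by the authors.

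The 10 genes and all lists were chosen with earlier results of these data known. The gate was first set at 2 markers per cell and lowered to 1 after the class sizes were seen. The cluster score of 3, the Xist limit of 20 CPM for tumour clusters and the side boundary of 0.5 were set after clusters and levels had been seen. Named genes are the 10 genes, the other haem and iron genes that passed, and the 5 most alike outside the 10 over profiles with a maximum of at least 50 CPM. Counts were summed per class and library and compared with exact intervals (scipy 1.17.1), tested on simulated data. Classes under 50 cells were not compared. Alternatives are in the closing section.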

Additional observations from a re-analysis of the deposited data

Results flagged for a closer look

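Slc40a1 went in opposite directions in different classes of the CKO-labelled library against Flox+RI. The ratio was 2.67 in neutrophil-like cells, 0.399 on the Gpnmb side of macrophage-like cells, where the CKO-labelled library held 6 UMIs, and 0.350 in tumour cells, where both levels were under 1 CPM. The difference between the classes was not tested, since each group is 1 library.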

How the results depend on the processing

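Of 137 ratios, 52 passed the 2-fold rule. All 52 still passed with clusters alone, with 2 markers per cell and without the tumour cluster led by Dcn and Lum; 51 did at 10% mitochondrial UMIs, 50 at resolution 2.0 or with Ccl8 and Spp1 out of the score, 49 with the 10 genes in the clustering, 48 at 1000 UMIs and 41 without doublet removal. Of those that could be computed, 39 of 42 passed by the marker gate alone, 30 of 33 with each cell at the same weight and 31 of 33 centred on the median gene. Centring, 2 markers per cell, the Dcn and Lum cluster and the score without Ccl8 and Spp1 were chosen after seeing the data. Among the 52 that passed, 1 direction reversed: Cp between the sides in Flox+RI, at 1.10 without doublet removal. Ratios that had not passed also crossed 1, such as Cd163 over macrophage-like cells in the CKO-labelled library against Flox+RI, from 0.948 to 1.31 (1.09 to 1.56) with each cell at the same weight, and Cp in tumour cells in Flox+RI against Flox+ICI, from 1.02 to 0.926 with that weighting.

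Counts of passing genes depended most on the fold. No share over all genes is given at the other settings, and a looser fold lets more of any genes pass. The counts below thus describe the dependence on the setting only. In the CKO-labelled library against Flox+RI, 5 genes in macrophage-like cells became 3 at 3-fold, 4 on the Mrc1 side became 1, 4 on the Gpnmb side became 1, and 3 in tumour cells became 5 at 1.5-fold and 1 at 3-fold. In Flox+RI against Flox+ICI, 2 in macrophage-like cells became 4 at 1.5-fold, 0 at 3-fold and 1 without doublet removal, and 3 on the Mrc1 side became 5 and 1. The 1 on the Gpnmb side became 6 at 1.5-fold, 0 at 3-fold or without doublet removal, and 3 with equal weights or centring. The 1 in tumour cells became 2 at 1.5-fold, with equal weights and with centring. No paired analysis was possible because each group is 1 library. Genes under 20 UMIs were not compared, and no setting measures the spread between animals.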
